A study of Arabidopsis thaliana with 18 samples.

Results

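The beta-glucosidase genes BGLU25 (AT3G03640, chromosome 3), BGLU28 (AT2G44460, chromosome 2), BGLU41 (AT5G54570, chromosome 5) and BGLU46 (AT1G61820, chromosome 1) were followed across sorted root protoplasts of Arabidopsis thaliana. They were found by symbol in the annotation of the array's probesets and make 4 of the 22 family genes that have a probeset of their own, of 48 family genes listed and of 13356 genes with such a probeset. The 4 symbols were chosen from measured values of these same arrays, and the contrast that chose them is not recorded. Every comparison is therefore taken as one that chose them, and their values are a description, given with standard errors and without p-values. Each of the 4 has 1 probeset, and all 4 passed the filter on low signals.

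The cells came from roots of 7-day-old Col-0 seedlings that carry a green fluorescent reporter under the WEREWOLF promoter (Pwer::GFP), whose activity marks the epidermis of the root and the lateral root cap. Root protoplasts were transformed transiently with an empty vector (pMON999_mRFP), with a plasmid over-expressing IAA7mII (pBeaconRFP_IAA7mII) or with one over-expressing IAA19mII (pBeaconRFP_IAA19mII). After a night they were kept for 3 h with 5 µM of the auxin IAA (indole-3-acetic acid) or with solvent alone (mock), and doubly fluorescent cells, green and red, were sorted for 18 ATH1 arrays. This gives 6 groups of 3 arrays: empty vector mock, empty vector IAA, IAA7mII mock, IAA7mII IAA, IAA19mII mock and IAA19mII IAA. All 6 groups share the reporter line, the cell wall digestion, the transformation and the sort. IAA7 and IAA19 are Aux/IAA repressors of auxin-induced genes, and the labels used here do not spell out mII or the promoter of the inserts. The empty vector is another plasmid than the backbone of both over-expressors, so insert and backbone cannot be told apart in any comparison with it. The labels do not say whether the 3 arrays of a group came from separate cultures, so all errors refer to the spread between arrays, and that spread may be technical.

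Plant beta-glucosidases of glycoside hydrolase family 1 cut glucose from small glucosides and set free the remainder of the molecule, such as a lignin precursor, a defence compound or a hormone. Many are kept apart from their substrates in the vacuole, the cell wall or the endoplasmic reticulum, and meet them when cells are damaged. In roots the best known member is PYK10, the main protein of the endoplasmic reticulum bodies of Arabidopsis. BGLU46 and its neighbour BGLU45 hydrolyse monolignol glucosides such as coniferin, the glucosides of lignin precursors. BGLU28 is known for its rise when sulfur is short and for a part in glucosinolate breakdown under that condition. BGLU25 belongs to the branch of the family that holds PYK10.

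Values are MAS5 signals on a linear scale as deposited, scaled alike by the authors (trimmed means of 246 to 248 per array). Changes are differences of log2(signal + 16), which understate the change of low signals, and ± gives the standard error from a limma fit over 16892 probesets and all 18 arrays. A probeset is called where its Benjamini-Hochberg adjusted p over those probesets is under 0.05. The errors are pooled over the 6 groups, although the typical (median) SD was 0.262 and 0.287 with the empty vector and 0.345 to 0.438 with the inserts. The 75th percentile of the signals was higher in the empty vector arrays (264 to 275) than in the over-expressor arrays (220 to 238), and the median change of all tested probesets against the empty vector was between -0.17 and -0.09. In bulk samples, fewer cells of a type and less RNA per cell cannot be told apart. Of the 23 listed epidermis and lateral root cap markers 2 could be tested, TRY and EXPA7, and WEREWOLF has no named probeset here. TRY was above the 40th percentile on 0 of 6 empty vector arrays (7.4 to 27.4), and EXPA7 on 5 of 6 (19.1 to 217.7).

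BGLU46, the monolignol glucosidase gene, was higher in all 12 over-expressor arrays than in any empty vector array. The 3 empty vector mock arrays gave signals of 1979.4, 2971.4 and 1842.9, and the 3 empty vector IAA arrays gave 1405.8, 1486.4 and 1648.4. With IAA7mII the signals were 8325.9, 7386.7 and 7318.5 in mock and 7680.9, 7607.2 and 8512.8 with IAA. With IAA19mII they were 8338.6, 8027.5 and 8689.0 in mock and 8854.7, 8279.2 and 9742.3 with IAA. The 4 over-expressor groups overlapped with their neighbours in order of level, whereas the empty vector mock arrays all lay above the empty vector IAA arrays. Against the empty vector in mock, the difference was 1.78 ± 0.15 with IAA7mII (3.44-fold) and 1.91 ± 0.15 with IAA19mII (3.75-fold). With IAA it was 2.38 ± 0.15 (5.20-fold) and 2.55 ± 0.15 (5.87-fold). BGLU46 had the smallest error of the 4 genes.

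BGLU28, the gene tied to sulfur shortage, showed a separate level for each vector. The empty vector arrays gave 241.3, 395.4 and 681.3 in mock and 76.6, 86.6 and 309.8 with IAA. The IAA7mII arrays gave 1333.6, 989.8 and 932.1 in mock and 983.8, 889.8 and 898.4 with IAA. The IAA19mII arrays gave 2332.8, 2616.6 and 2738.9 in mock and 1992.8, 2819.4 and 2325.1 with IAA. Every IAA19mII array lay above every IAA7mII array, and every IAA7mII array lay above every empty vector array, while mock and IAA arrays of the same vector overlapped. On the log2 scale the empty vector groups were the widest, with SDs of 0.72 in mock and 1.01 with IAA. The insert groups had log2 SDs of 0.08 to 0.27. Mean signals with the empty vector were 439 (SD 223, n = 3) in mock and 158 (SD 132, n = 3) with IAA. Against the empty vector in mock, the difference was 1.37 ± 0.34 with IAA7mII (2.59-fold) and 2.62 ± 0.34 with IAA19mII (6.13-fold). With IAA it was 2.69 ± 0.34 (6.44-fold) and 4.02 ± 0.34 (16.3-fold), the largest difference among the 4 genes. For this gene the pooled error of 0.34 understates the spread of the empty vector arrays and overstates that of the insert arrays. The call of BGLU28 for IAA7mII in mock was lost without empty vector mock replicate 1 (1.02).

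BGLU41, for which no role is given here, had low signals in empty vector cells and several-fold higher ones in the other arrays. The empty vector arrays gave 64.2, 56.2 and 50.7 in mock and 20.5, 65.7 and 50.1 with IAA. The IAA7mII arrays gave 387.5, 360.5 and 225.2 in mock and 232.0, 276.6 and 322.7 with IAA. The IAA19mII arrays gave 383.9, 383.7 and 231.4 in mock and 293.9, 139.9 and 294.6 with IAA. All 12 over-expressor arrays lay above all 6 empty vector arrays, and the 4 over-expressor groups overlapped with one another in order of level. One array of the 18, of the empty vector with IAA, fell below its array's 40th percentile, the level the filter used. The mock difference from the empty vector was 2.19 ± 0.35 with IAA7mII (4.56-fold) and 2.23 ± 0.35 with IAA19mII (4.68-fold). With IAA it was 2.32 ± 0.35 and 2.08 ± 0.35 (4.24-fold).

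BGLU25 was the 1 member of the 4 that lay lower in the over-expressor arrays. The empty vector arrays gave 1196.2, 1612.1 and 1720.9 in mock and 1688.8, 1892.3 and 2083.7 with IAA. The IAA7mII arrays gave 859.7, 767.7 and 1096.7 in mock and 843.3, 521.7 and 714.6 with IAA. The IAA19mII arrays gave 611.2, 562.8 and 814.7 in mock and 686.9, 412.0 and 875.2 with IAA. No over-expressor array reached the lowest empty vector array, and the nearest pair was 1096.7 with IAA7mII in mock against 1196.2 with the empty vector in mock. In mock the difference from the empty vector was -0.72 ± 0.25 with IAA7mII, which was not called, and -1.17 ± 0.25 with IAA19mII (2.25-fold lower). With IAA it was -1.45 ± 0.25 (2.73-fold lower) and -1.56 ± 0.25 (2.94-fold lower). The mock difference with IAA7mII became a call in 4 of 9 other settings and without any 1 of 4 arrays, for instance -0.88 without empty vector mock replicate 1.

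**Figure D1:**
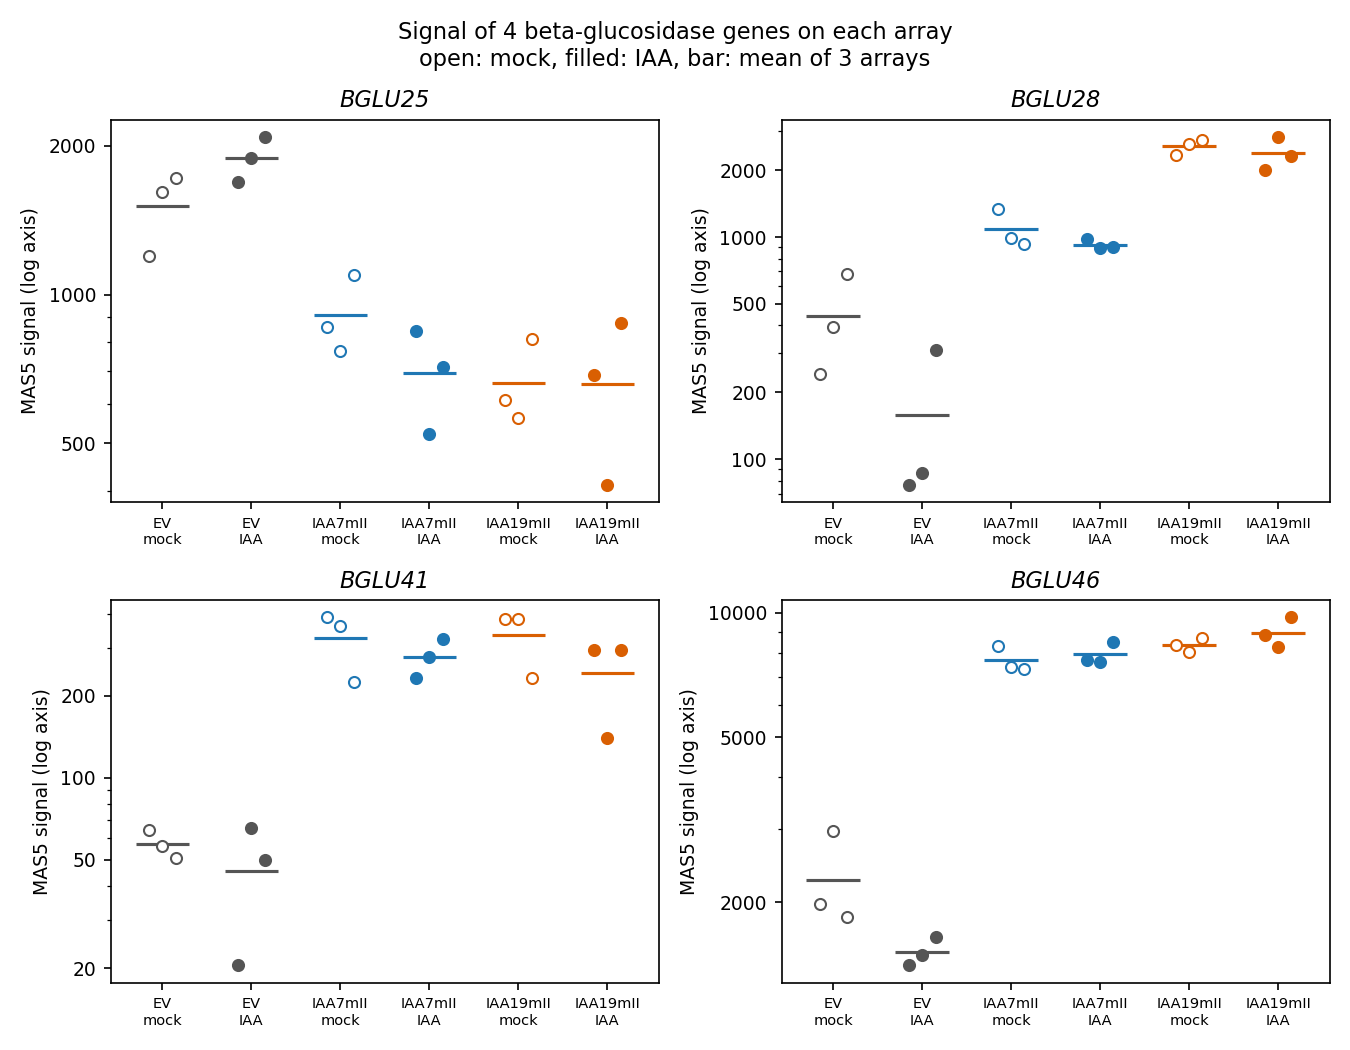
Signal of BGLU25, BGLU28, BGLU41 and BGLU46 on each of the 18 arrays (MAS5 signal, log axis, a scale of its own per gene), with open points for mock, filled points for IAA, bars for the mean of 3 arrays and EV for empty vector. BGLU25 lies lower and the other 3 genes lie higher in all 12 over-expressor arrays than in the 6 empty vector arrays, and BGLU28 is also split between IAA7mII and IAA19mII.

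Set against all probesets, the counts of called members read as follows, and since the genes were chosen from such values nothing is read from them. For IAA7mII against the empty vector in mock, 3 of the 4 were called higher, where 5.33% of all tested probesets were, and 0 of the 4 were called lower, where 6.09% were. For IAA19mII in mock, 3 were called higher and 1 lower, with 6.64% and 7.83% of all probesets. With IAA the counts were again 3 higher and 1 lower for each insert, where the shares over all probesets were 7.72% higher and 11.7% lower for IAA7mII, and 9.26% higher and 14.3% lower for IAA19mII. Of all tested probesets, 3.42% had all 12 over-expressor arrays above all 6 empty vector arrays, as BGLU28, BGLU41 and BGLU46 did, and 4.51% had them all below, as BGLU25 did. The 4 comparisons use the same empty vector arrays, so they are not separate evidence. The median over the 4 members was 1.58 and 2.07 in mock and 2.35 and 2.32 with IAA, for IAA7mII and IAA19mII in turn.

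**Figure D2:**
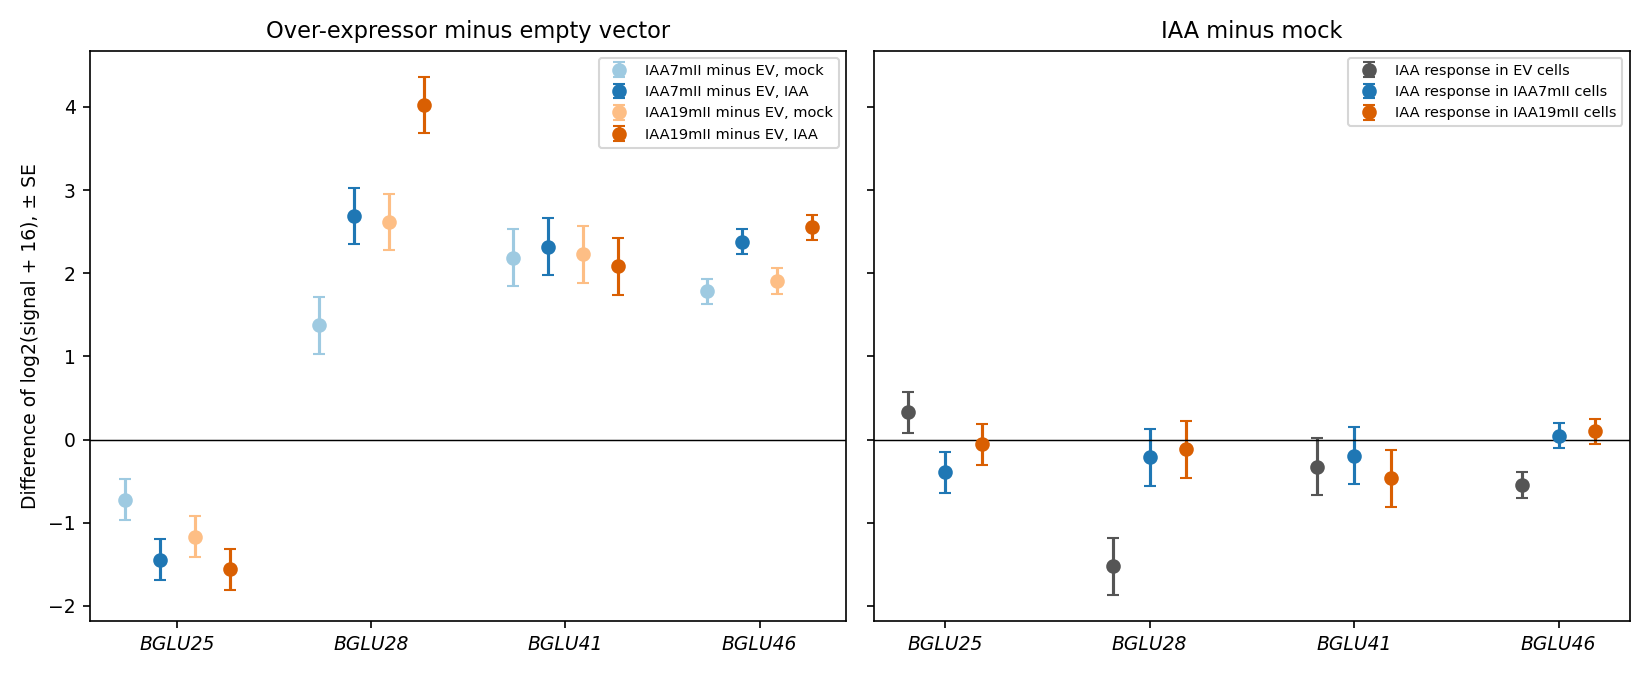
Differences of log2(signal + 16) for BGLU25, BGLU28, BGLU41 and BGLU46, over-expressor minus empty vector (left) and IAA minus mock (right), with standard errors from the limma fit and EV for empty vector. The differences from the empty vector reach 4.02 for BGLU28 with IAA19mII and IAA and are below 0 for BGLU25, while responses to IAA lie between -1.53 and 0.33.

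Except for BGLU28 in empty vector cells, responses of the 4 genes to IAA within a vector were smaller in size than each of the gene's own differences from the empty vector. In empty vector cells BGLU28 was lower with IAA by 2.88-fold (-1.53 ± 0.34), the 1 called member of the 4, where 0.734% of all tested probesets were called. Its mock and IAA arrays nevertheless overlapped, because 309.8 in the highest IAA array exceeded 241.3 in the lowest mock array. The call was lost without empty vector IAA replicate 1 (-1.20) or 2 (-1.27), without empty vector mock replicate 2 (-1.54) or 3 (-1.16), and in 2 other settings. Since the members were chosen from such values, nothing is read from the call. BGLU46 was lower by 1.46-fold (-0.55 ± 0.15) with no overlap between mock and IAA arrays, and was not called. BGLU41 (-0.32 ± 0.35) and BGLU25 (0.33 ± 0.25) differed by about their error or little more.

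In over-expressor cells no member was called as responding to IAA. With IAA7mII the changes of BGLU25, BGLU28, BGLU41 and BGLU46 were -0.39, -0.21, -0.19 and 0.05, and with IAA19mII they were -0.06, -0.12, -0.47 and 0.10. Over all tested probesets 0.0888% were called for IAA7mII and 0.0888% for IAA19mII. The difference between the responses itself, over-expressor minus empty vector, was 1.31 ± 0.48 for BGLU28 with IAA7mII and 1.41 ± 0.48 with IAA19mII. For BGLU46 it was 0.59 ± 0.22 and 0.65 ± 0.22. None of these was called, where 0.0651% and 0.0888% of all probesets were. For BGLU28 with IAA19mII the difference was called without empty vector IAA replicate 3 (1.99), the highest of the empty vector IAA arrays.

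Between the inserts, BGLU28 had the largest difference of the 4 members. It was higher with IAA19mII than with IAA7mII by 2.37-fold in mock (1.24 ± 0.34) and 2.53-fold with IAA (1.34 ± 0.34), with no overlap between arrays at either treatment. That is 1 of 4 called higher in mock and 1 of 4 with IAA, where 3.14% and 4.17% of all probesets were called higher, and 1.23% and 2.47% were called lower. Since the members were chosen from such values, nothing is read from these counts. These plasmids share their backbone by name. The call in mock was lost without any 1 of 5 arrays (1.14 to 1.31) and at a pseudocount of 1 (1.25), and that with IAA without IAA19mII IAA replicate 2 (1.21). Both were lost without the intensity trend. The other members differed by -0.45 ± 0.25 (BGLU25), 0.04 ± 0.35 (BGLU41) and 0.12 ± 0.15 (BGLU46) in mock and by -0.11, -0.24 and 0.17 with IAA, none called.

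Of the other family genes, 18 had a probeset of their own and 11 passed the filter. The 7 that did not were BGLU19, ATA27 (BGLU20), BGLU31, BGLU32, BGLU36, BGLU43 and BGLU44. Against the empty vector, 2 of the 11 rose and 1 fell with IAA7mII in mock, 2 rose and 0 fell with IAA19mII in mock, 2 rose and 1 fell with IAA7mII and IAA, and 5 rose and 0 fell with IAA19mII and IAA. The shares of all tested probesets called higher and lower were 5.33% and 6.09%, 6.64% and 7.83%, 7.72% and 11.7%, and 9.26% and 14.3% in the same order. The median change of the 11 was 0.54, 0.28, 0.33 and 0.50 in these comparisons. No response of the 11 to IAA was called with any vector, while 2, 0 and 2 had an unadjusted limma p under 0.05 with the empty vector, IAA7mII and IAA19mII, where 5.16%, 7.73% and 8.82% of all tested probesets did. BGLU29, BGLU33, BGLU40, BGLU42 and BGLU47 were called in none of the 11 comparisons.

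**Figure D3:**
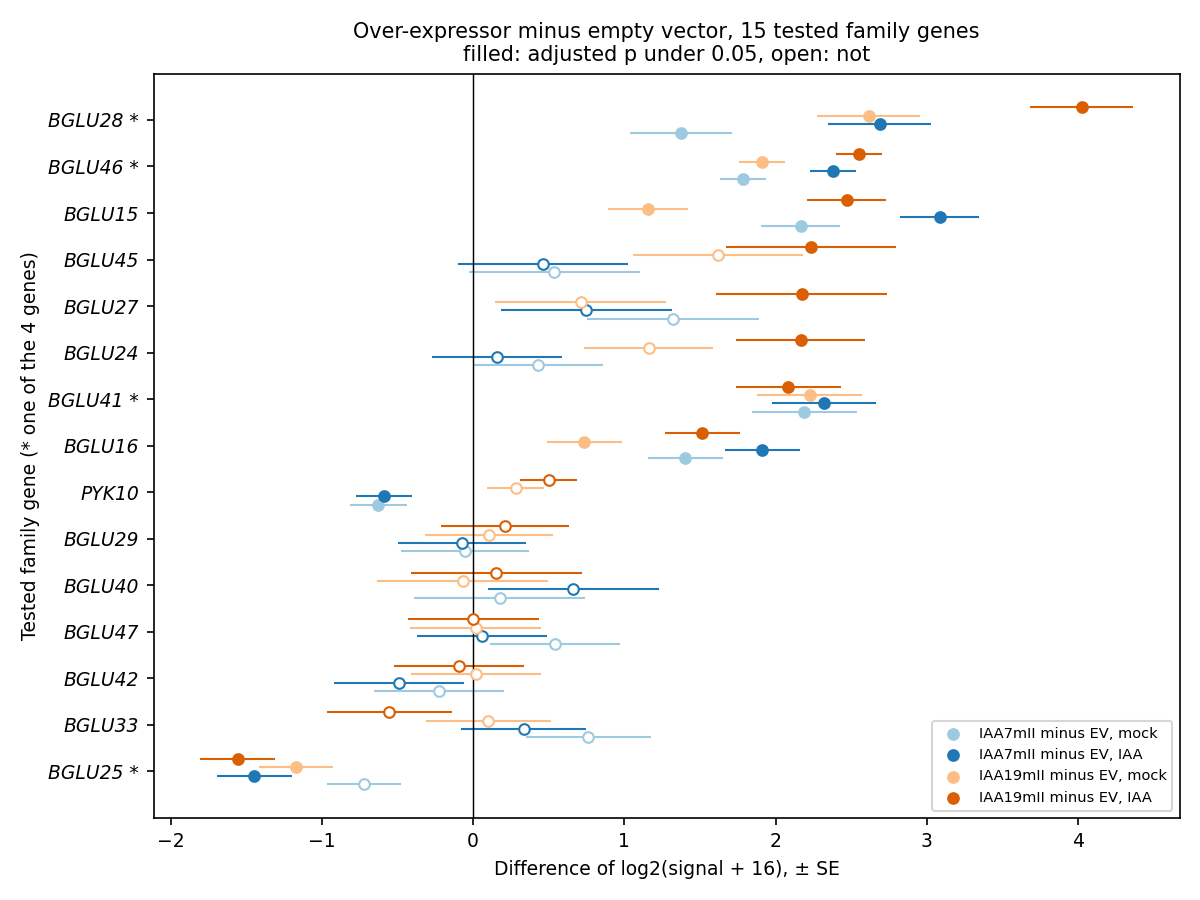
Differences of log2(signal + 16) from the empty vector (EV) for the 15 tested beta-glucosidase genes, in mock and with IAA and for both inserts, with standard errors from the limma fit. BGLU15 and BGLU16 stand beside BGLU28, BGLU41 and BGLU46 above 0, and PYK10 lies below 0 with IAA7mII and above it with IAA19mII.

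BGLU15, which in Arabidopsis hydrolyses flavonol glucosides, lies next to BGLU28 on chromosome 2 in the TAIR10.1 gene order and was raised most with IAA7mII. Its signals were 208.3, 162.6 and 203.1 with the empty vector in mock and 123.9, 80.3 and 79.9 with IAA. They were 1214.3, 712.9 and 871.4, and 1032.4, 1135.9 and 639.7, with IAA7mII in mock and IAA. With IAA19mII they were 434.7, 467.6 and 430.5 in mock and 480.1, 690.0 and 613.1 with IAA. All over-expressor arrays lay above all empty vector arrays, and in mock all IAA7mII arrays lay above all IAA19mII arrays. Against the empty vector BGLU15 rose 4.49-fold with IAA7mII in mock (2.17 ± 0.26, limma adjusted p = 1.67e-06) and 2.23-fold with IAA19mII in mock (1.16 ± 0.26, limma adjusted p = 0.0031). With IAA it rose 8.49-fold (3.09 ± 0.26, limma adjusted p = 1.77e-09) and 5.55-fold (2.47 ± 0.26, limma adjusted p = 7.54e-08). It was 2.01-fold lower with IAA19mII than with IAA7mII in mock (-1.01 ± 0.26, limma adjusted p = 0.021), where its neighbour BGLU28 was higher, and this call was lost with median centring and without any 1 of 5 arrays. BGLU29, the next gene after BGLU28 in that order, was not called.

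BGLU16, next to BGLU27 on chromosome 3, rose with both inserts. Its empty vector arrays lay between 566.3 and 1226.5, its IAA7mII arrays between 2278.9 and 3283.8, and its IAA19mII arrays between 1233.1 and 3215.9. The over-expressor arrays thus lay above all empty vector arrays, by a narrow margin for the lowest IAA19mII array. The rise was 2.65-fold with IAA7mII in mock (1.40 ± 0.25, limma adjusted p = 0.000295), and 3.76-fold and 2.86-fold with IAA for IAA7mII (1.91, limma adjusted p = 2.35e-06) and IAA19mII (1.51, limma adjusted p = 5.73e-05). With IAA19mII in mock it was 1.66-fold (0.73 ± 0.25, limma adjusted p = 0.0464), a call lost in 4 of 9 other settings and without any 1 of 7 arrays.

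PYK10, the endoplasmic reticulum body glucosidase, had signals of 5102.2 to 6280.4 with the empty vector, 2937.6 to 5129.1 with IAA7mII and 5916.6 to 9854.9 with IAA19mII. The IAA19mII arrays lay above all IAA7mII arrays, and they overlapped with the empty vector arrays. PYK10 fell 1.54-fold with IAA7mII in mock (-0.63 ± 0.19, limma adjusted p = 0.0276) and 1.5-fold with IAA7mII and IAA (-0.59 ± 0.19, limma adjusted p = 0.0270). The mock call was lost without the intensity trend and without any 1 of 4 arrays, and the call with IAA was lost in 2 other settings, median centring among them, and without any 1 of 4 arrays. Between inserts it was 1.88-fold higher with IAA19mII in mock (0.91 ± 0.19, limma adjusted p = 0.00291, a call lost without the intensity trend) and 2.13-fold higher with IAA (1.09 ± 0.19, limma adjusted p = 0.000327). With IAA19mII against the empty vector it differed by 0.28 in mock and 0.50 with IAA, neither called.

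**Figure D4:**
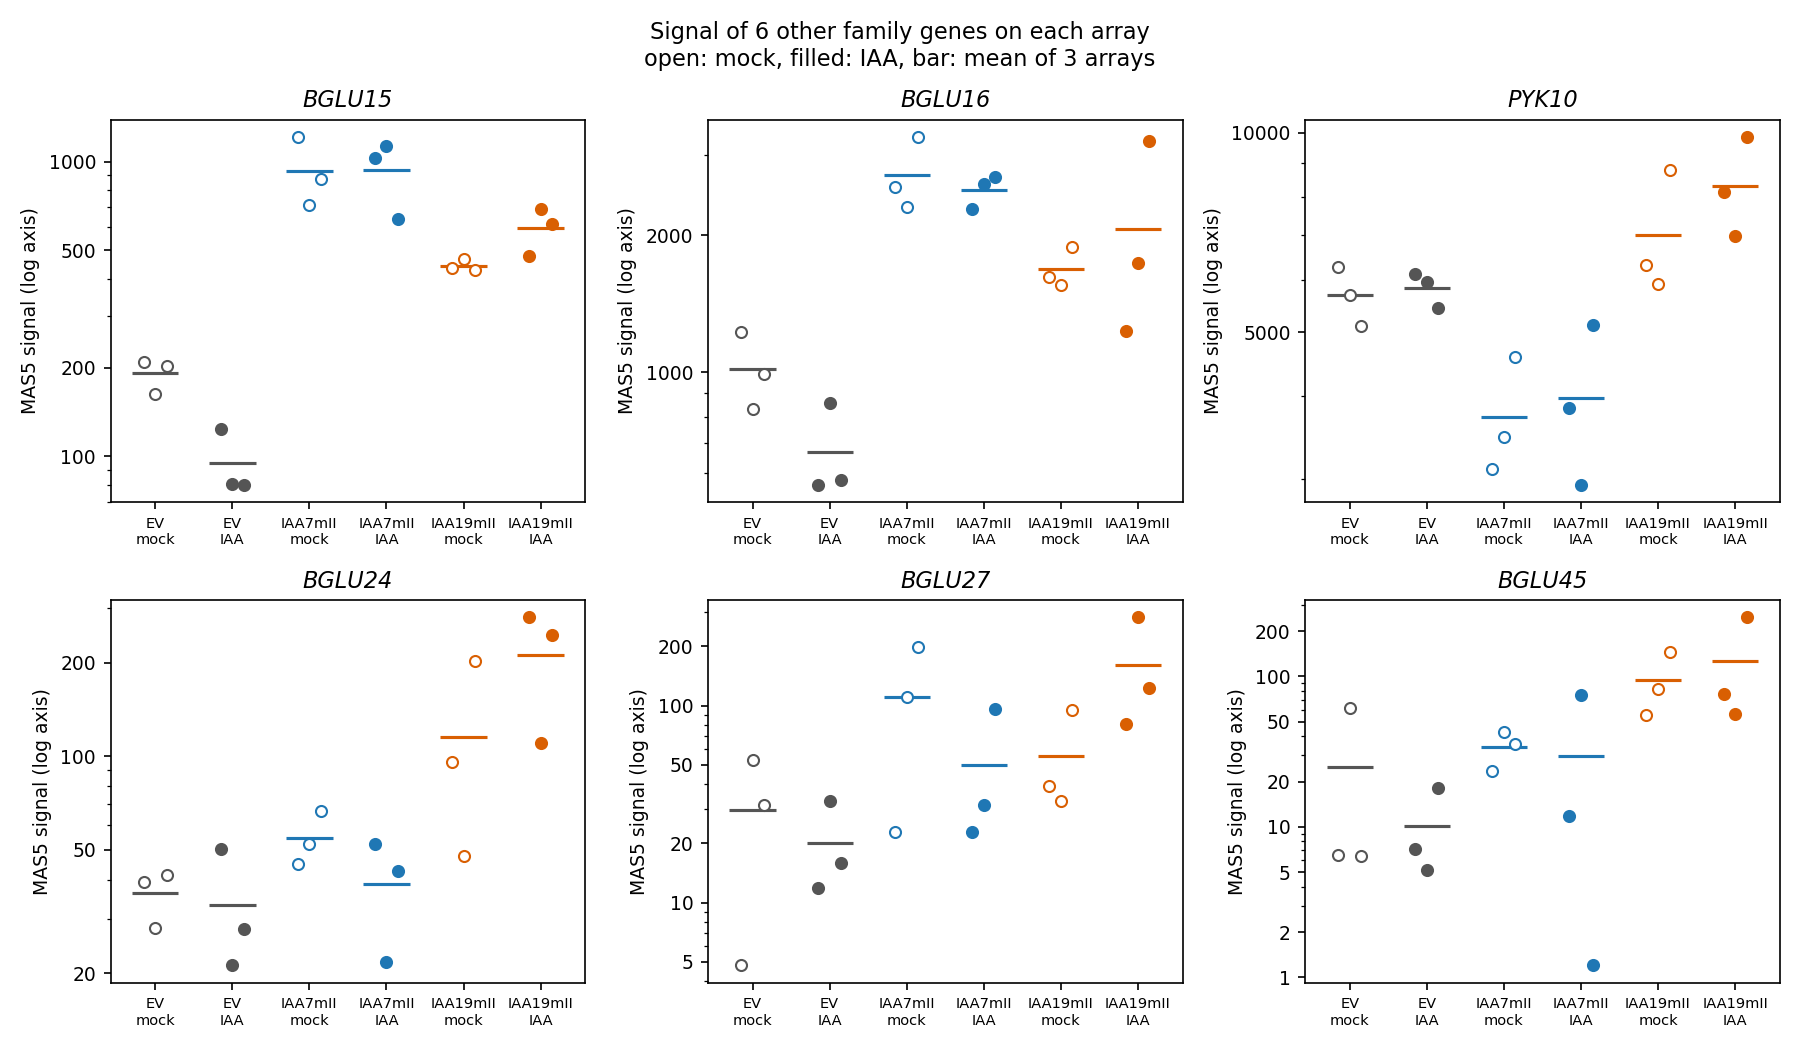
Signal of BGLU15, BGLU16, PYK10, BGLU24, BGLU27 and BGLU45 on each array (MAS5 signal, log axis, a scale of its own per gene), with open points for mock, filled points for IAA, bars for the mean of 3 arrays and EV for empty vector. PYK10 separates IAA7mII from IAA19mII arrays, and the signals of BGLU27 and BGLU45 reach down to 4.8 and 5.2 with the empty vector.

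BGLU24, BGLU27 and BGLU45 were called against the empty vector with IAA19mII and IAA alone, and all 3 had low signals. These folds rest on empty vector signals near or below the filter level, and the log2 differences ranged over the other settings from 1.46 to 2.63 (BGLU24), 1.33 to 2.87 (BGLU27) and 1.23 to 3.38 (BGLU45). BGLU45, the monolignol glucosidase gene beside BGLU46 on chromosome 1, lay between 5.2 and 62.0 with the empty vector, above the 40th percentile on 1 of 6 arrays. Its IAA19mII arrays gave 55.8, 82.0 and 145.8 in mock and 75.9, 56.1 and 246.9 with IAA. The rise was 4.71-fold with IAA (2.23 ± 0.56, limma adjusted p = 0.00484), and the mock difference of 1.62 was not called. BGLU24 lay between 21.2 and 50.4 with the empty vector and rose 4.49-fold with IAA19mII and IAA (2.17 ± 0.43, limma adjusted p = 0.000532), to 279.8, 110.2 and 246.4. It was 4.02-fold higher there than with IAA7mII (2.01, limma adjusted p = 0.00345). BGLU27 lay between 4.8 and 53.1 with the empty vector and rose 4.51-fold (2.17 ± 0.57, limma adjusted p = 0.00621), to 80.6, 279.9 and 123.0. For all 3 genes the difference of responses between IAA19mII and empty vector cells was not called.

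Genes of the pathways around these enzymes were covered thinly by named probesets. Of 14 genes of endoplasmic reticulum bodies 5 were tested, and against the empty vector 0 rose and 3 fell with IAA7mII at each treatment, where 6.09% (mock) and 11.7% (IAA) of all tested probesets were called lower. In mock these were NAI1, the regulator of these bodies (-1.20, limma adjusted p = 0.0255), PYK10 and the lectin gene JAL33 (-0.54). With IAA they were NAI2, which encodes a protein needed to form the bodies (-1.33, limma adjusted p = 0.0033), PYK10 and JAL33 (-0.63). With IAA19mII 0 of 5 were called in mock, where 6.64% of all tested probesets were called higher and 7.83% lower. With IAA19mII and IAA 1 of 5, JAL33, rose (0.52, limma adjusted p = 0.0269) and 0 fell, where 9.26% and 14.3% did. Between inserts 2 of 5 were higher with IAA19mII in mock, NAI1 (1.56) and PYK10, and 3 of 5 with IAA, JAL33 (1.16), PYK10 and NAI2 (1.09), where 3.14% and 4.17% of all tested probesets were called higher. Against the empty vector in mock, the NAI1 call was lost in 1 of 9 other settings and without any 1 of 3 arrays, and the JAL33 call in 3 of 9 and without any 1 of 5 arrays. With IAA both JAL33 calls were lost in 2 of 9, and without empty vector IAA replicate 3 (IAA7mII) or any 1 of 2 arrays (IAA19mII). Between inserts the NAI1 call was lost without any 1 of 2 arrays, and the NAI2 call in 2 of 9 other settings and without any 1 of 3 arrays.

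Of 32 lignin precursor and lignin genes 7 were tested. Against the empty vector 0 rose and 0 fell with IAA7mII in mock (5.33% and 6.09% of all tested probesets). With IAA7mII and IAA 0 rose and 1 fell (7.72% and 11.7%). With IAA19mII 1 rose and 0 fell in mock (6.64% and 7.83%) and with IAA (9.26% and 14.3%). Between inserts 2 were called higher with IAA19mII and 0 lower at each treatment, where 3.14% (mock) and 4.17% (IAA) of all tested probesets were called higher. PRX52, a peroxidase of lignin formation, was higher with IAA19mII than with the empty vector in mock (2.77, limma adjusted p = 0.00013) and with IAA (3.18). It was also higher than with IAA7mII (2.65 and 3.95). The lignin list was chosen with earlier results of these data known, so the PRX52 values are no independent check. HCT, an enzyme of monolignol synthesis, was lower with IAA7mII and IAA than with the empty vector (-0.995, limma adjusted p = 0.00853), a call lost with median centring and without IAA7mII IAA replicate 1, and higher with IAA19mII than with IAA7mII (1.11 in mock, lost without IAA19mII mock replicate 3, and 1.66 with IAA). BGLU46 itself had overlapping levels with both inserts. Of 26 sulfur limitation genes beside BGLU28 the 1 tested was SIR, the sulfite reductase gene. It fell in 3 of the 4 comparisons with the empty vector, which share empty vector arrays. Of all tested probesets 6.09% (mock) and 11.7% (IAA) were called lower with IAA7mII, and 7.83% and 14.3% with IAA19mII. SIR fell 2.20-fold with IAA7mII in mock (-1.14 ± 0.31, limma adjusted p = 0.0148, a call lost without the intensity trend and without any 1 of 3 arrays), 2.61-fold with IAA7mII and IAA (-1.38) and 2.70-fold with IAA19mII and IAA (-1.43). With IAA19mII in mock its difference of -0.82 was not called.

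Of the glucosinolate list 1 of 50 genes was tested, UGT74B1, and it was not called in any comparison. Of the 10 coumarin genes 2 were tested, and UGT71C1 alone was called, lower with IAA19mII and IAA (-1.10), where 14.3% of all tested probesets were. Its signals there were 1.8 to 17, all below the 40th percentile, against 21.3 to 47.3. It passed the filter mostly through empty vector arrays, 4 of 6 above the 40th percentile against 1 of 6 with each insert. The call was kept in 3 of the 8 other settings that tested it. With 1 array left out it was kept in 11 of 18 fits. Of 23 genes listed for abscisic acid, its glucosyl ester and its response 3 were tested and none was called, and of 21 sugar starvation genes none was tested. In empty vector cells 0.734% of all tested probesets were called as responding to IAA. All 8 tested genes of the early auxin list rose there (median 3.47), but this list was chosen with earlier results known and is no independent check. Among them LBD29 passed the filter through its 3 empty vector IAA arrays and lost its call at a pseudocount of 1, and the GH3.1 call was lost in 2 of 9 other settings and without any 1 of 5 arrays. Among cell type markers, JKD of cortex and endodermis, 1 of 18 listed, was not called. LHW of the stele, 1 of 23 listed, was called lower with IAA7mII in mock, where 6.09% of all tested probesets were. Its signals were 2.7 to 62.5 against 108.1 to 177.9. Only 1 of those 3 IAA7mII arrays was above the 40th percentile, so no fold is given. With IAA it was 42.6 to 75.1 against 138.3 to 240.1, a call kept in 4 of 9 other settings. There 11.7% of all tested probesets were called lower. LHW was also called higher with IAA19mII than with IAA7mII in mock, where 3.14% were, a call kept in 5 of 9. Of the 2 epidermis markers 1 was called, TRY, higher with IAA19mII and IAA, where 9.26% of all tested probesets were. Its signals there were 59.0 to 87.0 against 17 to 27.4. TRY passed the filter through its IAA19mII arrays, 6 of 6 above the 40th percentile against 1 of 6 with IAA7mII. This call was lost without empty vector IAA replicate 3 or IAA19mII IAA replicate 3. The marker lists were also chosen with earlier results known, so the TRY call is no independent check. EXPA7 was not called in any comparison, and its differences from the empty vector were -0.57 and -0.87 with IAA7mII and 0.58 and 0.29 with IAA19mII, in mock and with IAA. The part of these marker changes in the beta-glucosidase differences was not tested.

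The genes whose pattern over the 18 arrays was most like that of each member were taken by Pearson correlation of log2(signal + 16) among 9508 other named probesets. For BGLU46 these were AT4G18425 (r = 0.982), the autophagy gene ATG8E (r = 0.978) and AT1G23560 (r = 0.976). AT4G18425 also led for BGLU41 (r = 0.944), before AT5G64190 (0.942) and AT5G63990 (0.936). For BGLU28 they were AT2G28570 (r = 0.960), AT5G67340 (0.954) and AT3G05400 (0.949), and for BGLU25 AT5G56900 (r = 0.937), AT2G38550 (0.929) and AT2G34970 (0.923). These correlations are a description over arrays that share vectors and treatments, and correlations within a vector were not computed. AT4G18425 ran from 93.2 to 212.7 with the empty vector and from 2203.4 to 2918.0 with the inserts. The signals of the other listed genes did not overlap between empty vector and over-expressor arrays either, except those of AT2G34970, at 325.4 to 512.2 and 181.4 to 338.9. Over all tested probesets, 3.42% had all over-expressor arrays above all empty vector arrays, and 4.51% had them all below. The listed genes were picked for likeness to members that separate the vectors, so nothing is read from this.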

How the data were processed

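Signals were measured on 18 ATH1 arrays, 3 in each of 6 groups. The authors deposited 1 linear signal intensity per probeset, made with MAS5 per the submitters' processing notes (version not given in the sources used here). Per the labels, the NuGEN WT-Ovation Pico kit amplified the RNA. Of 22746 probesets, 13513 carry 1 gene in the platform annotation, 503 several and 8730 none; 13436 matched the TAIR10.1 gene table, used for names and gene order only. A probeset was tested if 3 or more arrays had it above their own 40th percentile, which left 16892. The model, limma 3.58.1 under R 4.3.3, was run on log2(signal + 16) with a mean for each group, an intensity trend and Benjamini-Hochberg adjustment within each of 11 comparisons. The fit was also run on simulated data in which each probeset had the same SD in every group. That simulation cannot check the pooling of errors over groups of unequal spread. The number of arrays limits the precision. The members, gene lists and tests were chosen with earlier results of these data known. Named were the members, all called family genes, up to 4 called genes per list and comparison, and the 3 most alike probesets per member; list genes that were not called are given as counts. Alternatives were pseudocounts of 1 and 64, no filter or the 60th percentile, quantile normalization, median centring, a prior without the intensity trend, only the groups compared, the replicate number as a block, and leaving out each array. Genes without a probeset of their own were not analysed here.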

Additional observations from a re-analysis of the deposited data

Results flagged for a closer look

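A difference between vectors in the response to IAA was called for 2 genes of the early auxin list and for none of the beta-glucosidase genes. Both comparisons use the same empty vector arrays. For the Aux/IAA gene IAA29 the log2 response differed by -4.54 with IAA7mII and -4.54 with IAA19mII from that with the empty vector. IAA29 was above the 40th percentile on 1 of 6 arrays with each insert and 1 of 3 empty vector mock arrays, so these sizes depend on the pseudocount: they ranged from -4.99 to -3.55 and from -5.32 to -3.53 over the other settings, and both calls were lost at a pseudocount of 1. For IAA30 the differences were -2.73 and -2.84, and both calls were lost at a pseudocount of 1 and without the intensity trend. They were also lost without any 1 of 7 arrays for IAA7mII and any 1 of 3 for IAA19mII.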

How the results depend on the processing

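No called value of the 4 beta-glucosidase genes changed direction, while some values near 0 that were not called did (BGLU41 in empty vector cells, -0.57 to 0.01 with 1 array left out). Of 396 values under 9 alternatives 388 moved by less than 1 SD, and of 792 values with 1 array left out 782 did. Many of these values could not move. The filters, the prior without the trend, the fit of only the groups compared and the replicate block leave the differences unchanged in this balanced design. So does leaving out an array of a group that is not compared. These counts are therefore no measure of stability. At a pseudocount of 64 the differences from the empty vector fell to 3.6 for BGLU28 (IAA19mII, IAA) and for BGLU41 to 1.66 (IAA7mII) and 1.69 (IAA19mII) in mock and 1.65 and 1.46 with IAA; a larger pseudocount shrinks low signals by construction. BGLU46 with IAA7mII and IAA moved to 2.59 with median centring and 2.18 with quantile normalization, and with IAA19mII and IAA to 2.28 with the latter; the cause was not tested. With 1 array left out, BGLU28 ranged from -2.11 to -1.16 for its response in empty vector cells, 2.36 to 3.27 and 3.70 to 4.60 against the empty vector with IAA (IAA7mII, IAA19mII), and 0.95 to 1.89 and 1.04 to 1.99 for the differences of responses; leaving out empty vector IAA replicate 3 gave -2.11, 3.27, 4.60, 1.89 and 1.99. For the same response BGLU46 ranged from -0.68 to -0.34, for its mock differences from the empty vector from 1.65 to 2.00 and 1.78 to 2.12, and for the differences of responses from 0.38 to 0.73 and 0.43 to 0.78, moved most by empty vector mock replicate 2. The count of other family genes called for IAA19mII in mock was 2, and became 1 with a pseudocount of 1, no filter or no intensity trend, 4 with median centring, 4 with the replicate block, and 1 to 3 with an array left out. For IAA19mII against IAA7mII in mock it was 2, 1 with median centring or no trend, and 1 to 2 with an array left out. Same-numbered arrays of different groups deviated together little (r from -0.0585 to 0.162), and differently numbered ones had r from -0.151 to 0.119. These small correlations do not decide whether the numbers pair the samples, and the main fit did not pair them. BGLU27 and BGLU45 lie near the background of the arrays in empty vector cells, which limits their folds.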
